A study of Mus musculus with 19 samples.

Results

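Microglia, the resident macrophages of the brain, can make cholesterol and fatty acids themselves, and the genes described here encode that machinery. The set holds 31 genes, chosen by name from the steps of the pathway, out of 16941 genes in the deposited tables. It contains 5 regulators, 7 genes of the early (mevalonate) steps, 11 genes of the steps that turn farnesyl units into cholesterol, the sterol carrier Stard4 and 7 genes of fatty acid synthesis. All 31 passed the filter on low counts and were among the 14113 genes tested. The cells were cortical microglia of C57BL/6 mice aged 10 to 11 months, cultured for 4 weeks in medium with M-CSF (5 ng/mL) and 10% serum. APP LPS and APP vehicle cultures (5 libraries each) came from hAPPJ20 mice, whose human APP transgene with the Swedish and Indiana mutations is driven by a PDGF promoter used for expression in neurons. WT LPS (5 libraries) and WT vehicle (4 libraries) cultures came from mice without the transgene. LPS cultures received 100 ng/mL of lipopolysaccharide for 6 h and vehicle cultures did not, and all of them then had 16 h of recovery. The labels do not say whether the libraries of a group came from separate animals or cultures, so every p-value measures the spread between libraries, which may be technical.

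The pathway is controlled by its product. When membranes of the endoplasmic reticulum hold little sterol, the escort protein SCAP carries the SREBP transcription factors to the Golgi, where they are cut and released to the nucleus. When sterol is plentiful, the INSIG proteins hold SCAP back. SREBP2, from Srebf2, acts mainly on cholesterol genes, and SREBP1, from Srebf1, mainly on fatty acid genes. The serum in culture medium carries lipoproteins, a source of cholesterol from outside the cell.

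Promoter sequences are shown for Hmgcs1, the gene used below as the yardstick of the pathway, and for the 3 members whose levels followed it most closely over all 19 libraries. The order of members differed when libraries were left out, as given below. Each is the RefSeq sequence from 250 bases before to 50 bases after a transcript start (GRCm38.p6), written 5′ to 3′ on the gene's strand. Capitals mark matches, on either strand, to a sterol regulatory element (TCACNCCAC), to an E-box, spelled CACGTG, to the CCAAT box, or to a GC box, spelled GGGCGG. The Hmgcs1 window spans chr13:119690101-119690400 (plus strand), the Idi1 window chr13:8885356-8885655 (plus strand), the Cyp51 window chr5:4104648-4104947 (minus strand) and the Hsd17b7 window chr1:169969156-169969455 (minus strand).
Hmgcs1 promoter: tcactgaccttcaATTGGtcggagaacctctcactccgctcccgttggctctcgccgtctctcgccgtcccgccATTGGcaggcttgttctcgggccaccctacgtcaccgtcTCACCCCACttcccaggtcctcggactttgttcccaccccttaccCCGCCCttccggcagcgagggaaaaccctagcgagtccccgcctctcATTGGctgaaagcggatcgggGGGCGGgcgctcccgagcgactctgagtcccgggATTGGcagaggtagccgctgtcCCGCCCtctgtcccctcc
Idi1 promoter: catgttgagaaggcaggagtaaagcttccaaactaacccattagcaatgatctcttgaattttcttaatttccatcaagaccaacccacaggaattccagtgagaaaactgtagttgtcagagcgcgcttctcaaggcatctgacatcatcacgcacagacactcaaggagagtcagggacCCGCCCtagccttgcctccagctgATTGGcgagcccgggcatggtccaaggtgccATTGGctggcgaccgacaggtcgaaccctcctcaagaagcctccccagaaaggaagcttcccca
Cyp51 promoter: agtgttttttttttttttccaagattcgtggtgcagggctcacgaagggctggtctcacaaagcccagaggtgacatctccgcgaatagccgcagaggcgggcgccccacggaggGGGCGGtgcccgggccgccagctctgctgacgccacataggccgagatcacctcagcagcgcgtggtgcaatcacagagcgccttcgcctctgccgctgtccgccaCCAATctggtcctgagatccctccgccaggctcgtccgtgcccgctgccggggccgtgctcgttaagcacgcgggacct
Hsd17b7 promoter: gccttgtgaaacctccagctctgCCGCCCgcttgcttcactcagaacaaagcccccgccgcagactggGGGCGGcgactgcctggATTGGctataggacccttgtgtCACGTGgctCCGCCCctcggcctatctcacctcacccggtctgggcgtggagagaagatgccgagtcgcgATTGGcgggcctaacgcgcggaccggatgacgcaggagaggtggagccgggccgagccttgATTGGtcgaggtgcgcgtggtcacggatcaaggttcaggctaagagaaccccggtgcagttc
Hmgcs1 held 1 match to the sterol regulatory element, 4 CCAAT boxes and 3 GC boxes. The Idi1 window held 2 CCAAT boxes and 1 GC box, the Cyp51 window 1 of each, and the Hsd17b7 window 1 E-box, 3 CCAAT boxes and 3 GC boxes. Of the 25 members with a promoter in the RefSeq table, 1 (Hmgcs1) matched TCACNCCAC, beside 1.24% of all 32851 promoters. CACGTG was found for 6 members, CCAAT for 21 and GGGCGG for 21. The shares are per promoter, and these members have 33 promoters. Of those, 1 held TCACNCCAC, 7 CACGTG, 22 CCAAT and 25 GGGCGG. Among all promoters, 7.15% held CACGTG, 37.4% CCAAT and 35.7% GGGCGG. The letters of these motifs do not overlap one another. A match is a description of the letters only. No promoter entry was used for Fdps, Fdft1, Sqle, Stard4, Scd1 and Scd2.

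Library totals were between 13065257 and 31248988 counts, and values are given as CPM, the count of a gene scaled to a common library total after TMM adjustment. The 12 macrophage and microglia markers, all above 0 in every library, summed to between 1045 and 6984 CPM in APP LPS, 1645 and 7597 in APP vehicle, 1745 and 7251 in WT LPS, and 2287 and 7775 in WT vehicle. The cultures held transcripts of other cells too: 12 markers of fibroblasts, pericytes and smooth muscle summed to between 1246 and 5591 CPM over the libraries. The 4 libraries numbered 57 to 60 had the lowest macrophage sums, between 1045 and 2287 CPM against 3852 to 7775 CPM in the other 15. In bulk RNA, fewer cells of a type and less RNA per cell cannot be told apart.

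One pair of APP cultures stood above all others for many of these genes. APP LPS 1 and APP vehicle 1 carry consecutive library numbers, 4 and 3. Of the 19 libraries APP LPS 1 had the fewest genes above 0, 11161, and APP vehicle 1 the most, 14333. The part of this in the members' levels was not tested. APP LPS 1 had the highest value of all 19 libraries for 11 of the 31 members, and APP vehicle 1 for 9. Each was among the 3 highest libraries for many more, 21 members in APP LPS 1 and 25 in APP vehicle 1. APP LPS 1 was also the lowest of the 19 for 2 members, Acaca at 1.52 CPM and Mvd at 0, and APP vehicle 1 for 0. The 18 genes of the mevalonate and sterol steps summed to 1606 CPM in APP LPS 1 and 1317 CPM in APP vehicle 1, against 379 to 885 CPM in the other 17 libraries. The 7 fatty acid genes summed to 309.7 CPM in APP LPS 1 and 496 CPM in APP vehicle 1, against 119.7 to 243 CPM elsewhere. Scd2 alone gave 156 and 294 CPM of these 2 sums, while Fasn stood at 1.77 CPM in APP LPS 1 and 26.1 in APP vehicle 1. These libraries also had the highest sums of 8 astrocyte markers, 316 CPM in APP LPS 1 and 293 CPM in APP vehicle 1, against 52.3 to 194 CPM in the others, and of 7 measured oligodendrocyte lineage markers, 218 and 229 CPM in the same order, against 23.3 to 169 CPM. Of the astrocyte markers, Gfap and Aqp4 were at 0 in 11 libraries each, and of the oligodendrocyte markers Olig2 was at 0 in 15. The part of these markers in the members' levels was not tested. Results that rest on this pair are given with and without it.

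**Figure D1:**
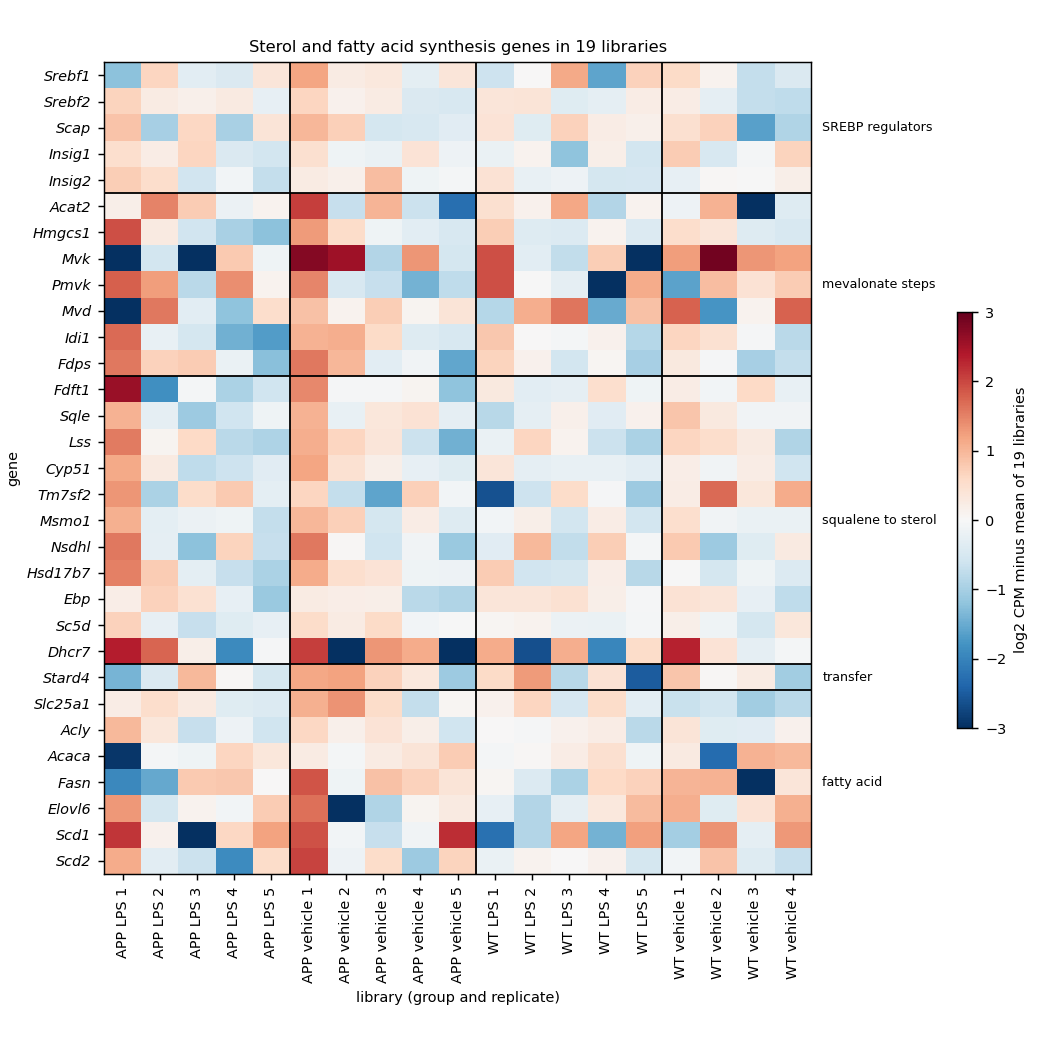
Each row is 1 of the 31 genes and each column 1 of the 19 libraries, with colour for log2 CPM minus the gene's mean over the libraries; colours end at -3 and 3, and values beyond are drawn at the end colour. Groups run from APP LPS on the left to WT vehicle on the right, and the first column of both APP groups is red for most sterol genes.

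Whether LPS moved the pathway was asked first. In edgeR's quasi-likelihood test with Benjamini-Hochberg adjustment over all 14113 genes, 0 of the 31 members were called at an adjusted p under 0.05 for LPS against vehicle in APP cultures (0% of all genes called), in WT cultures (0%) or averaged over genotypes (0.0213%, which is 3 genes, among them the cytokines Il1b and Tnf). At an unadjusted p under 0.05 the members counted 0 in APP, 2 in WT and 0 averaged, and all genes 679, 516 and 868. DESeq2 and limma voom called 0 members as well. The median log2 difference of the members was -0.09 in APP (all genes -0.03), -0.07 in WT (all genes -0.01) and -0.17 averaged (all genes -0.02), with 12, 11 and 10 of 31 members above 0. Single libraries moved these medians: the APP value was -0.42 without APP LPS 1 and 0.08 without APP vehicle 1, and the averaged value -0.31 and 0.00. Without both, the medians were -0.24 in APP and -0.22 averaged. In WT the median was -0.17 without WT LPS 1 and 0.02 without WT vehicle 1. The smallest adjusted p of any member in any of the 7 comparisons was 0.860, for Mvk. LPS itself was visible: Il1b stood at 331, 729, 234, 265 and 437 CPM in APP LPS, against 14.8, 26.2, 6.36, 52.2 and 131 in APP vehicle.

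Treating each LPS library and the vehicle library with the neighbouring number as a pair gave 9 pairs and a second fit. With these pairs as a block, edgeR called 83 genes in APP (0.588%), 21 in WT (0.149%) and 211 averaged (1.5%), and again 0 members in each (3, 1 and 2 at an unadjusted p under 0.05, beside 1085, 700 and 1297 of all genes). The members' medians were then -0.26 in APP, -0.17 in WT and -0.22 averaged, beside -0.11, 0.03 and -0.04 for all genes. In the same averaged comparison 6 of 12 macrophage and microglia markers were called lower and 0 higher, at a median of -0.39, and their part in the members' values was not tested. LPS was lower than vehicle in at least 7 of the 9 pairs for 5 members, Mvk, Idi1, Sqle, Cyp51 and Sc5d, a count to read beside the 12.3% of all genes that met this rule. It was higher in at least 7 pairs for Srebf2 and Acat2, 2 members, beside 10.3% of all genes.

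Among the regulators, Srebf2, which encodes the SREBP of cholesterol genes, had the narrowest range, 2.70-fold from the lowest to the highest library. It stood at 74.7, 55.5, 52.7, 56.9 and 39.4 CPM in APP LPS and 73.2, 51.7, 55.9, 34.9 and 33.7 in APP vehicle. In WT LPS it was 60.4, 61.6, 36.5, 38.8 and 55.1 CPM, against 54.9, 38.8, 28.5 and 27.7 in WT vehicle. The groups overlapped in both genotypes, with 4 of 5 APP pairs and 3 of 4 WT pairs higher after LPS. Averaged over genotypes the log2 difference was 0.30 ± 0.20 (SE), with a 95% interval of -0.12 to 0.71.

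Srebf1, which encodes the SREBP of fatty acid genes, ranged over 6.93-fold. Its values were 4.52, 16.6, 8.57, 7.89 and 13.6 CPM in APP LPS and 24.2, 12.7, 13.3, 8.61 and 13.8 in APP vehicle. WT LPS libraries had 6.86, 10.7, 23.5, 3.49 and 17.1 CPM, against 15.9, 11.4, 6.40 and 7.88 in WT vehicle. All groups overlapped, and the WT LPS libraries alone ran from the lowest value of the 19 to nearly the highest. The averaged LPS difference was -0.13 ± 0.39 on the log2 scale, -0.17 ± 0.47 with pairs as a block, and 0.04 ± 0.44 with that block and without the first APP pair.

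Insig1, whose protein retains SCAP and whose transcript is itself a target of SREBP, had 38.8, 31.7, 42.9, 20.3 and 18.6 CPM in APP LPS and 38.0, 25.2, 23.6, 36.2 and 24.8 in APP vehicle. In WT LPS it had 23.8, 29.6, 11.8, 31.1 and 18.5 CPM, against 46.3, 19.6, 26.3 and 43.8 in WT vehicle. The lowest value was in a WT LPS library and the highest in a WT vehicle library, with overlap between the groups. In WT the LPS difference was -0.57 ± 0.35 and in APP 0.04 ± 0.34 on the log2 scale. Insig2, the second retention protein, averaged 60.4 ± 26.6 CPM in APP LPS, 68.9 ± 22.4 in APP vehicle, 51.3 ± 15 in WT LPS and 56.8 ± 6.77 in WT vehicle (SD). Scap averaged 31.4 ± 16.7, 32.2 ± 16.9, 33.2 ± 8.55 and 26.9 ± 17.7 CPM in the same groups. The Srebf1 locus overlaps Rai1 on the opposite strand, and the sources used here do not say whether counting used the strand.

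**Figure D2:**
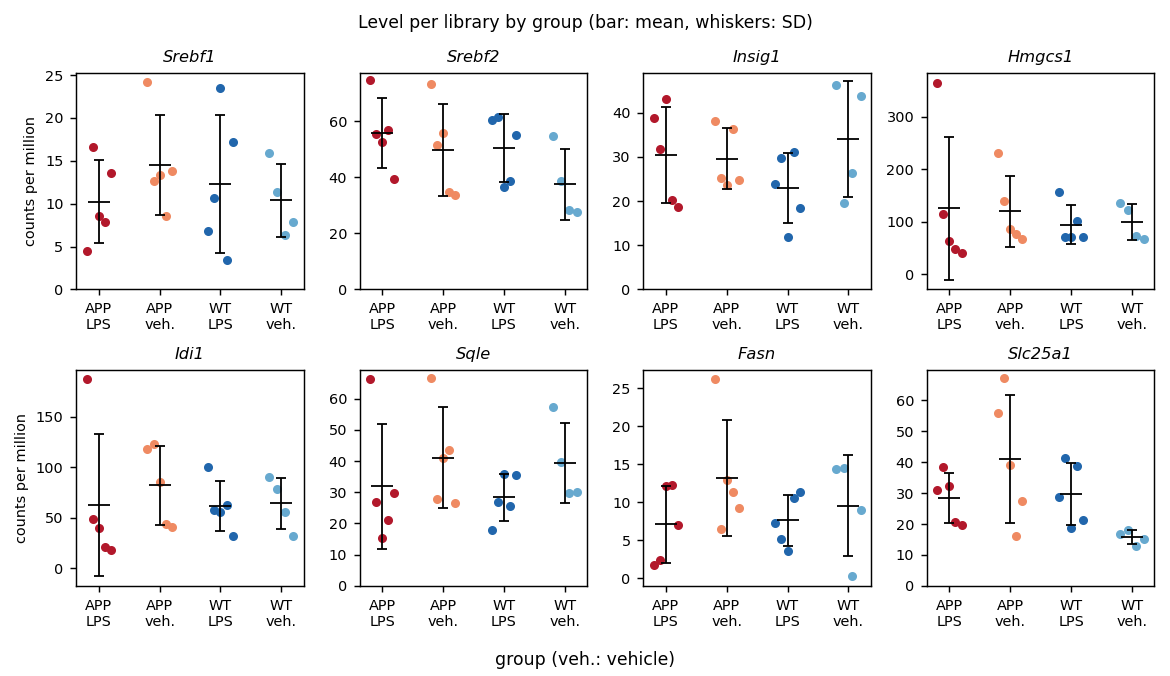
CPM of 8 members in every library (points), with the mean (bar) and SD (whiskers) of APP LPS, APP vehicle, WT LPS and WT vehicle. The highest Hmgcs1 and Idi1 points are APP LPS 1, at 364 and 187 CPM, and the WT vehicle points of Slc25a1 lie closely together, between 12.9 and 18.2 CPM.

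The mevalonate steps build isoprenoid units from acetyl-CoA. Hmgcs1, the cytosolic HMG-CoA synthase that opens the route (GRCm38 chromosome 13, 119690379 to 119708260, plus strand), had 364, 114, 63.5, 47.8 and 40.2 CPM in APP LPS and 229.8, 139, 86.9, 76.4 and 68.1 in APP vehicle. For WT LPS the values were 157, 71.8, 70.7, 101 and 71.3 CPM, against 135, 121, 72.4 and 67.7 in WT vehicle. APP LPS held both the highest and the lowest value of the 19, and the groups overlapped throughout. The averaged LPS difference was 0.00 ± 0.35 on the log2 scale (95% interval -0.73 to 0.73; adjusted p = 1, edgeR). With pairs as a block it was -0.30 ± 0.16 (95% interval -0.64 to 0.05; adjusted p = 0.678, edgeR), with LPS lower in 4 of 5 APP pairs and 2 of 4 WT pairs. Without the first APP pair, where LPS was higher, the paired difference was -0.42 ± 0.16 (95% interval -0.74 to -0.09; adjusted p = 0.300, edgeR), and -0.54 ± 0.22 in APP (adjusted p = 0.585), neither of them called.

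Idi1, the isomerase that interconverts the isoprenoid building blocks (chromosome 13, 8885501 to 8892451, plus strand), had the smallest p of the members with pairs as a block. It stood at 187, 48.8, 39.7, 21.0 and 17.8 CPM in APP LPS and 118, 123, 85.7, 43.9 and 41.0 in APP vehicle. In WT LPS it stood at 100.2, 58.0, 55.3, 62.2 and 31.7 CPM, against 89.9, 78.7, 55.8 and 32.4 in WT vehicle. Within APP pairs the log2 ratio of LPS over vehicle was -1.33, -1.11, -1.06 and -1.20 in pairs 2 to 5 and 0.66 in pair 1. The first APP pair went the other way from the other 4. With pairs as a block, the difference was -0.83 ± 0.25 in APP (adjusted p = 0.217), -0.26 ± 0.27 in WT (adjusted p = 1) and -0.54 ± 0.19 averaged (adjusted p = 0.226, edgeR).
Without APP LPS 1 and APP vehicle 1, a fit chosen after the data were seen, Idi1 was called lower after LPS, at -1.18 ± 0.21 on the log2 scale in APP (adjusted p = 0.0167) and at -0.72 ± 0.15 averaged (adjusted p = 0.0158, edgeR). It was then 1 of 31 members called, beside 0.283% of all genes in APP and 1.43% averaged. Leaving out any other pair gave 0 calls for Idi1 in the 8 remaining fits. The fit without pairs, over all 19 libraries, put the averaged difference at -0.23 ± 0.37.

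Mvk, the mevalonate kinase, had low counts. It stood at 0, 1.36, 0, 3.57 and 1.84 CPM in APP LPS and 14.3, 12.2, 1.05, 5.17 and 1.37 in APP vehicle. In WT LPS the gene had 8.01, 1.60, 1.17, 3.43 and 0 CPM, against 4.91, 15.5, 5.17 and 4.77 in WT vehicle. The 3 libraries at 0 were all LPS libraries, 2 from APP and 1 from WT, where a floor of 3 counts lies between 0.0963 and 0.249 CPM over the 19 libraries. LPS was lower in 8 of 9 pairs. The averaged difference was -1.87 ± 1.00 on the log2 scale (adjusted p = 0.860, edgeR), a fitted value that depends on how libraries at 0 are handled. With pairs as a block it was -3.10 ± 1.42 (95% interval -6.08 to -0.12; adjusted p = 0.4998, edgeR), and -2.51 ± 1.29 without the first APP pair (95% interval -5.21 to 0.19).

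Fdps, which joins isoprenoid units into farnesyl diphosphate, had 41.7, 22.7, 23.7, 12.1 and 5.80 CPM in APP LPS and 42.2, 28.0, 11.2, 12.9 and 4.69 in APP vehicle. In WT LPS it had 22.4, 15.3, 9.45, 14.7 and 6.94 CPM, against 17, 13.7, 6.91 and 8.42 in WT vehicle. Both APP groups reached values that no WT library had, and both also held values below most WT libraries. The remaining early genes Acat2, Pmvk and Mvd had medians of 9.67, 5.71 and 6.76 CPM over the libraries and wide spreads. Mvd was at 0 in APP LPS 1, and Pmvk was at 0.0646 CPM in WT LPS 4. Acat2 belongs to a family of similar thiolases, and Mvd overlaps Gm20388 on the opposite strand and Fdps overlaps Gm43738 on the same strand, so the split of reads between these genes is uncertain.

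The later steps make squalene from farnesyl units, close it into a ring and trim the ring to cholesterol. Sqle, the squalene epoxidase and a rate-setting enzyme of this stretch, had 66.4, 26.9, 15.2, 21.2 and 29.7 CPM in APP LPS and 66.6, 27.7, 40.9, 43.6 and 26.6 in APP vehicle. Among WT libraries it had 18, 26.9, 35.8, 25.6 and 35.4 CPM after LPS, against 57.3, 39.8, 29.8 and 30.2 in WT vehicle. LPS was lower in 7 of 9 pairs, and the groups overlapped. The averaged difference was -0.42 ± 0.26 on the log2 scale (95% interval -0.96 to 0.13; adjusted p = 0.954, edgeR).

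Tm7sf2, a sterol reductase, had 1.87, 7.71, 17.4, 11.6 and 5.54 CPM in WT LPS, against 13.7, 38.3, 15 and 25.5 in WT vehicle. Its values were 29.6, 6.10, 17.5, 20.6 and 9.67 CPM in APP LPS and 18.7, 7.14, 3.91, 19.4 and 11.2 in APP vehicle. LPS was lower in 4 of 4 WT pairs and in 2 of 5 APP pairs. The LPS difference was -1.39 ± 0.61 in WT and 0.47 ± 0.57 in APP on the log2 scale, and the difference between these, the genotype by LPS interaction, was 1.86 ± 0.84 (adjusted p = 1, edgeR). Tm7sf2 overlaps Vps51 on the same strand.

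Hsd17b7, a ketoreductase of sterol trimming, had 116, 67.8, 32.6, 24.8 and 20.9 CPM in APP LPS and 87.1, 56.8, 53.2, 36.9 and 36.2 in APP vehicle. The WT LPS values were 68.3, 26.8, 27.9, 46.1 and 22.6 CPM, against 39.9, 28.0, 36.6 and 30.1 in WT vehicle. APP vehicle reached higher than any WT vehicle library in 3 of its 5 libraries. Sc5d, a desaturase near the end of the route, had 112, 58.5, 42.6, 54.0 and 58.1 CPM in APP LPS and 102, 81.5, 102, 65.7 and 68.1 in APP vehicle. WT LPS libraries had 71.5, 74.7, 61.2, 60.0 and 66.1 CPM of Sc5d, against 78.5, 62.7, 48.1 and 87.1 in WT vehicle. In APP, 4 of 5 pairs were lower after LPS, with a difference of -0.37 ± 0.25 on the log2 scale. Pairing put it at -0.42 ± 0.20 (adjusted p = 0.645, edgeR).

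None of the other genes of the ring steps was called. Msmo1, a methyl oxidase, averaged 156 ± 86.0 CPM in APP LPS, 184 ± 82.9 in APP vehicle, 135 ± 34.2 in WT LPS and 149.6 ± 38.5 in WT vehicle (SD). Cyp51, the lanosterol demethylase, averaged 61.1 ± 37.8, 71.8 ± 34.1, 52.2 ± 11.5 and 54.9 ± 13.6 CPM in the same groups. The averaged LPS differences of Fdft1, Lss, Cyp51, Msmo1, Nsdhl, Hsd17b7, Ebp and Dhcr7 all had 95% intervals that include 0. Fdft1, the squalene synthase, reached 123 CPM in APP LPS 1 against 5.63 to 19.7 CPM in the other APP LPS libraries; its locus overlaps Ctsb, a lysosomal protease gene, on the opposite strand, and Cyp51 overlaps Akap9 in the same way. Dhcr7, the last reductase of one branch, was at or under 3 counts in 2 libraries. Stard4, which carries sterol between membranes, averaged 12.0 ± 7.66 CPM in APP LPS, 19.7 ± 9.53 in APP vehicle, 15.1 ± 11.0 in WT LPS and 14.1 ± 6.76 in WT vehicle.

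**Figure D3:**
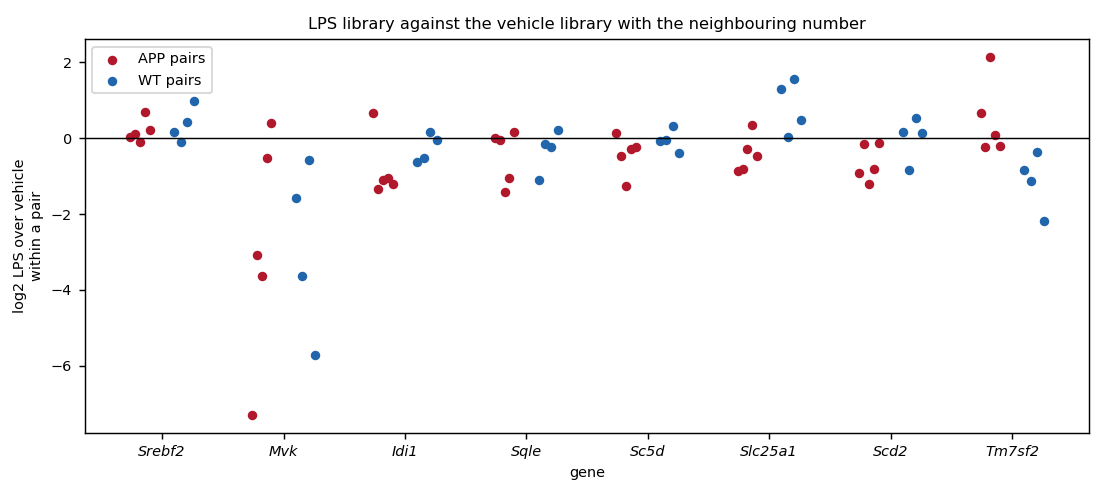
The log2 ratio of each LPS library over the vehicle library with the neighbouring number, for 8 members, with 5 APP pairs (left, red) and 4 WT pairs (right, blue). Idi1 is lower in 4 of 5 APP pairs, Scd2 in 5 of 5, and Slc25a1 is higher in 4 of 4 WT pairs and lower in 4 of 5 APP pairs.

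Fatty acid synthesis starts with citrate leaving the mitochondrion through the carrier encoded by Slc25a1, and this gene had the smallest unadjusted p of any member in the fit without pairs (chromosome 16, 17925223 to 17928219, minus strand). Slc25a1 had 31, 38.4, 32.2, 20.7 and 19.8 CPM in APP LPS and 56.0, 67.3, 39.1, 16.2 and 27.5 in APP vehicle. It had 28.9, 41.3, 18.7, 38.7 and 21.2 CPM in WT LPS, against 16.7, 18.2, 12.9 and 15.1 in WT vehicle. Every WT LPS library lay above every WT vehicle library, which held for no other member and for 1.3% of all genes in either direction, while the APP groups overlapped. In the other comparisons of ranges 0 members were free of overlap, beside 0.588% of all genes for APP LPS against APP vehicle, 0.843% for APP vehicle against WT vehicle and 0.496% for APP LPS against WT LPS. Within pairs, LPS was higher in 4 of 4 WT pairs and lower in 4 of 5 APP pairs. The log2 difference of LPS against vehicle was 0.92 ± 0.38 in WT and -0.54 ± 0.35 in APP. Their difference, the interaction, was -1.46 ± 0.51 (95% interval -2.52 to -0.39; adjusted p = 1, edgeR), and -1.27 ± 0.47 with pairs as a block. Leaving out each library in turn moved the interaction between -1.66 and -1.21, with 0 calls.
After vehicle, Slc25a1 was higher in APP than in WT by 1.39 ± 0.38 on the log2 scale (95% interval 0.60 to 2.18; adjusted p = 1, edgeR). One APP vehicle library, at 16.2 CPM, lay within the WT vehicle range.

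Fasn, the fatty acid synthase itself, had 1.77, 2.35, 12.1, 12.2 and 7.04 CPM in APP LPS and 26.1, 6.42, 12.9, 11.3 and 9.19 in APP vehicle. In WT LPS cultures Fasn had 7.29, 5.21, 3.60, 10.6 and 11.3 CPM, against 14.3, 14.5, 0.274 and 9.01 in WT vehicle. Its highest value was in APP vehicle 1 and its lowest in WT vehicle 3, a spread of 95.2-fold. The averaged LPS difference was -0.61 ± 0.55 on the log2 scale (95% interval -1.75 to 0.53), so changes of about that size were not detectable at this spread. With pairs as a block and without the first APP pair it was -0.23 ± 0.74.

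Scd1 and Scd2 encode stearoyl-CoA desaturases, which put the first double bond into a saturated fatty acid, and they lie next to each other on chromosome 19. Their sequences are alike, so the division of reads between them is uncertain. Scd1 had 39.9, 9.71, 0, 13.6 and 20.7 CPM in APP LPS and 33.9, 8.37, 5.46, 8.22 and 41.5 in APP vehicle. Scd1 in WT LPS had 1.82, 4.80, 20.5, 3.30 and 20.9 CPM, against 4.33, 22.8, 7.41 and 22.1 in WT vehicle. It was listed at 0 in APP LPS 3 and above 30 CPM (33.9 to 41.5) in 3 APP libraries, with no order between the groups.
Scd2 had 156, 58.1, 46.2, 19.4 and 106 CPM in APP LPS and 294, 64.6, 107, 33.7 and 115 in APP vehicle. WT LPS libraries had 63.0, 77.5, 72.9, 79.7 and 49.8 CPM, against 68.5, 131, 55.4 and 44.9 in WT vehicle. In APP it was lower after LPS in 5 of 5 pairs, by log2 ratios between -1.21 and -0.12, and in WT in 1 of 4. With pairs as a block the APP difference was -0.64 ± 0.21 (adjusted p = 0.280, edgeR), and -0.57 ± 0.24 without the first APP pair (adjusted p = 0.647, edgeR). The fit without pairs put it at -0.67 ± 0.49, and leaving out 1 library moved that value between -1.10 and -0.05.

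Acly, which splits citrate into acetyl-CoA, Acaca, the acetyl-CoA carboxylase, and Elovl6, a chain elongase, had averaged LPS differences whose 95% intervals include 0. Acly averaged 33.6 ± 17.4 CPM in APP LPS, 35.8 ± 10.1 in APP vehicle, 29.9 ± 7.30 in WT LPS and 30.9 ± 8.12 in WT vehicle (SD). Acaca was at 1.52 CPM in APP LPS 1, against 11.1 to 18.9 CPM in the other APP LPS libraries, and its locus overlaps Gm11437 on the opposite strand. Elovl6 ranged from 0.190 to 23.7 CPM over the 19 libraries. Of the 7 fatty acid genes, 1 (Slc25a1) was above 0 in the averaged LPS comparison without pairs and 6 below, with a median of -0.34. With pairs as a block Elovl6 was above 0 too, at 0.19 ± 0.59, and at 0.38 ± 0.65 without the first APP pair. The rest stayed below 0 in both of these fits.

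**Figure D4:**
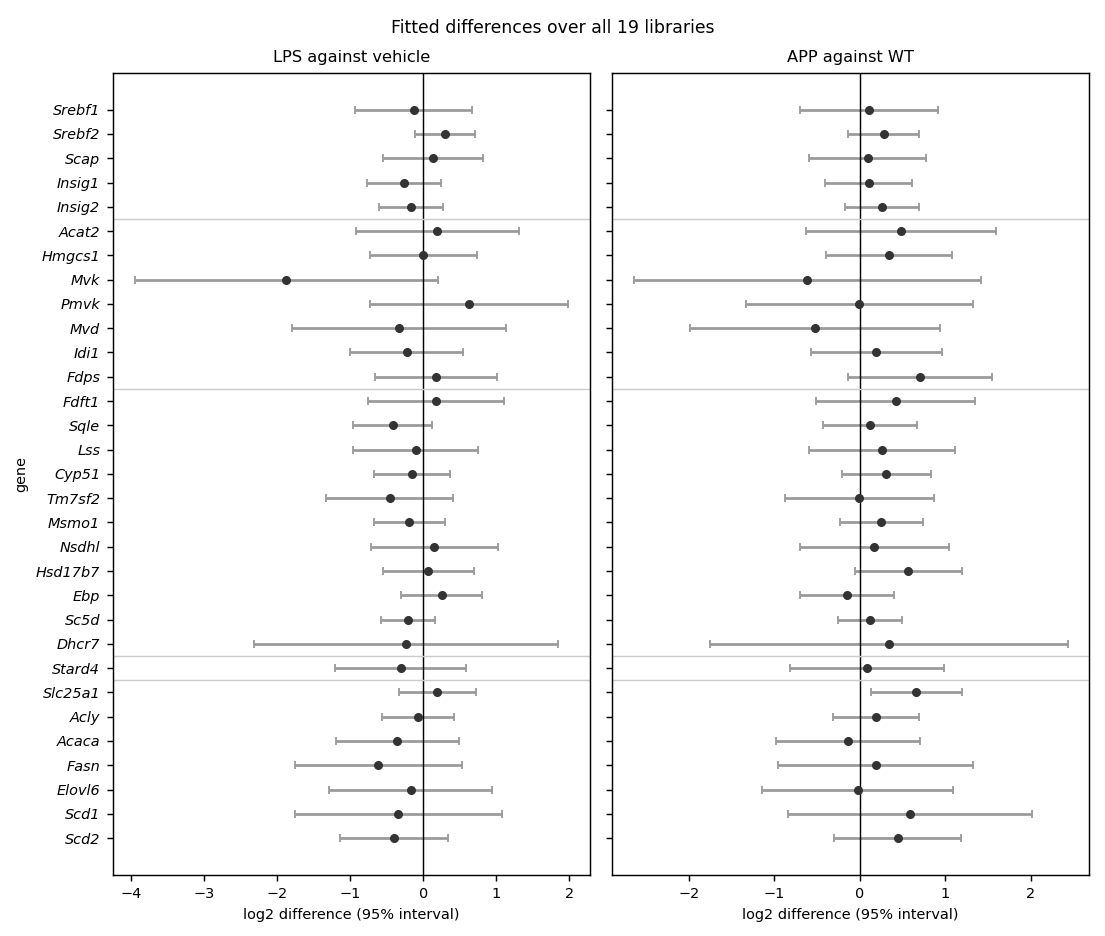
Fitted log2 differences with 95% intervals for the 31 members, in pathway order from Srebf1 at the top to Scd2 at the bottom: LPS against vehicle averaged over genotypes (left) and APP against WT averaged over treatments (right). Slc25a1 on the right, at 0.66, is the member whose interval does not reach 0.

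The second comparison was genotype. Again 0 members were called for APP against WT with vehicle, after LPS or averaged (edgeR; 0% of all genes called in each). The members at an unadjusted p under 0.05 were 1, 0 and 1, each time Slc25a1, and all genes counted 402, 482 and 486. DESeq2 called 64, 69 and 107 genes in these comparisons and 0 members, and its smallest adjusted p for a member was 0.0789, for Slc25a1 with vehicle. The members' median log2 difference was 0.27 with vehicle (22 of 31 above 0), 0.17 after LPS (21 above 0) and 0.19 averaged (24 above 0), beside 0.01, 0.00 and 0.01 for all genes. Without APP LPS 1 and APP vehicle 1, an alternative added after the data were seen, these medians were -0.03, -0.10 and -0.07, so their sign turned without that pair. Averaged over treatments, Slc25a1 differed by 0.66 ± 0.26, Hsd17b7 by 0.57 ± 0.30 and Fdps by 0.70 ± 0.41 on the log2 scale, with adjusted p = 1 for each (edgeR). Without APP LPS 1 and APP vehicle 1 these differences were 0.57, 0.19 and 0.26 in the same order.
For the genotype by LPS interaction, 0 members were called and 2, Slc25a1 and Tm7sf2, had an unadjusted p under 0.05, among 385 of all genes.

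Many sterol genes varied together from library to library within groups. After each group's mean was taken off, log2 CPM of Hmgcs1 and of every other gene was compared over the 19 libraries. Idi1 was the most alike of all 14112 other genes, with a Spearman rho of 0.94, and Hsd17b7 and Cyp51 (0.88 each) were in the first 8. The first 8 also held Abhd4, Ptms, Aldoc, Hexa and Mlf2, with rho between 0.88 and 0.89. A rho above 0.5 was found for 10 of the 17 other mevalonate and ring genes, 2 of the 5 regulators and 2 of the 7 fatty acid genes, in all 14 of 30 members, beside 6.41% of all genes. Srebf2 had a rho of 0.79 and Srebf1 of 0.09, Fdps of 0.82, Lss of 0.72 and Acaca of -0.68.
Without APP LPS 1 and APP vehicle 1, 10 of 30 members exceeded 0.5 (8.76% of all genes), with 7 of the 17 mevalonate and ring genes among them. Idi1 then had a rho of 0.89 (rank 3) and Fdps of 0.88 (rank 6). Hsd17b7 fell to 0.75 (rank 178) and Cyp51 to 0.56 (rank 883). Without libraries 57 to 60, 12 of 30 members exceeded 0.5 (9.11%). Some macrophage markers moved with Hmgcs1 as well, and others did not. Over all 19 libraries their rho ran from -0.04 (Itgam) to 0.86 (Cd68), with a median of 0.32, and 3 of 12 exceeded 0.5. Without the first APP pair 7 of 12 macrophage markers exceeded 0.5 (median 0.62). Without libraries 57 to 60 it was 1 of 12 (median -0.19). Their part in the likeness was not tested.

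For 8 gene pairs chosen by pathway position, Pearson's r was tested by 100000 permutations over the 19 libraries, with Benjamini-Hochberg adjustment over the 8. Hmgcs1 and Idi1 had r = 0.93 and rho = 0.94 (permutation p = 1e-05 for both, the smallest these permutations can give; adjusted p = 8e-05), and r = 0.89 without the 2 libraries farthest from the median of Hmgcs1, which were APP LPS 1 and APP vehicle 1. Hmgcs1 and Srebf2 had r = 0.68 and rho = 0.79 (permutation p = 0.00104 and 0.0001, adjusted p = 0.00416 and 0.0004), and r = 0.58 without those 2 libraries (adjusted p = 0.0588), where the call was lost. With Sqle, Hmgcs1 had r = 0.56 (permutation p = 0.014, adjusted p = 0.0373) and rho = 0.33 (adjusted p = 0.33), and r was 0.06 without those 2 libraries, with the group means kept, so this relation rests on them; with group means taken again over the other 17 libraries r was -0.096. With Insig1, r was 0.40 and rho 0.31 (permutation p = 0.0875 and 0.206, adjusted p = 0.175 and 0.33). The other 4 pairs were not called: Hmgcs1 with Fasn had r = -0.10 and rho = -0.10 (permutation p = 0.687 and 0.697), Fasn with Acaca r = -0.04 and rho = 0.04 (p = 0.87 and 0.865), Fasn with Srebf1 r = 0.20 and rho = 0.14 (p = 0.41 and 0.578), and Scd1 with Scd2 r = 0.31 and rho = 0.36 (p = 0.19 and 0.131, permutation). Neighbouring libraries deviated together, so the 19 points may not be independent. Over the 9 pair means and the 1 unpaired library, r was 0.95 for Idi1 and 0.79 for Srebf2 with Hmgcs1. Without the first APP pair and the unpaired library, r was 0.91 for Idi1 (adjusted p = 0.00352, permutation). For Srebf2 it was then 0.60 and not called (adjusted p = 0.452, permutation).

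**Figure D5:**
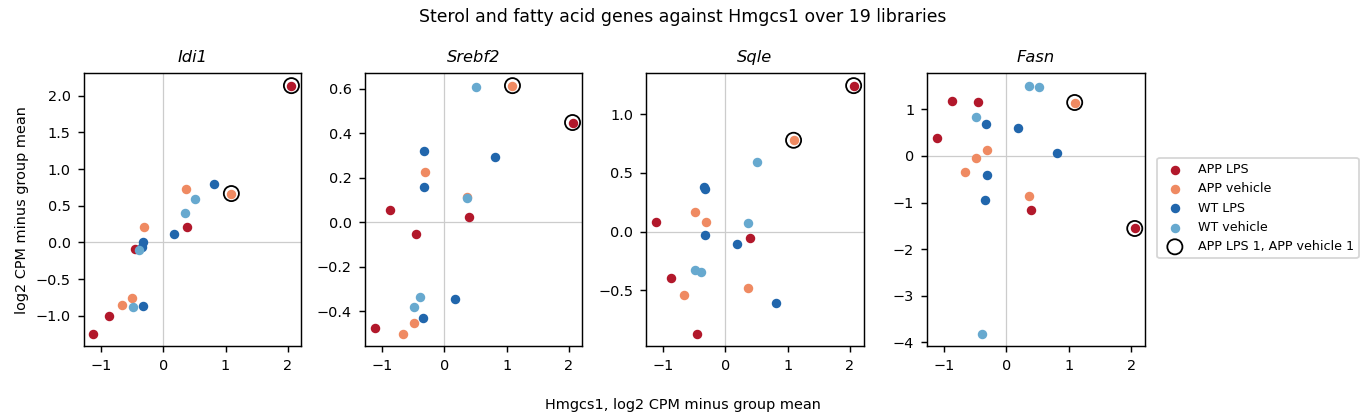
Log2 CPM of Idi1, Srebf2, Sqle and Fasn against Hmgcs1, each minus its group mean, in 19 libraries coloured by group; rings mark APP LPS 1 and APP vehicle 1. Idi1 follows Hmgcs1 along the whole range (r = 0.93), whereas Sqle has r = 0.06 over the points without rings and Fasn r = -0.10 with them.

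Genes next to the pathway were read from 4 further lists. None of their members was called in the group fit for LPS averaged over genotypes: 0 of 18 tested genes of sterol synthesis and uptake, 0 of 18 of fatty acid synthesis and SREBP1 targets, 0 of 6 of mitochondrial fatty acid synthesis and 0 of 11 of sterol efflux, storage and oxysterols (edgeR; 1, 3, 1 and 4 at an unadjusted p under 0.05). With pairs as a block, 4 were called: 1 of 18 in the fatty acid list (higher) and 3 of 11 in the efflux and storage list (1 higher, 2 lower), beside 1.5% of all genes, and 0 in the other lists. Acsl1, which activates fatty acids by joining them to coenzyme A, rose after LPS. It had 64.2, 61.6, 62.3, 80.2 and 111 CPM in APP LPS and 29.9, 33.1, 44.9, 41.5 and 53.4 in APP vehicle. WT LPS cultures gave 88.4, 87.4, 45.4, 79.2 and 203 CPM, against 34.3, 24.6, 31 and 80.9 in WT vehicle. LPS was higher in 9 of 9 pairs, and the paired difference was 1.06 ± 0.13 on the log2 scale (adjusted p = 0.000202, edgeR).

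Lipa, the lysosomal acid lipase that frees cholesterol from taken-up esters, fell. It had 182, 188, 135, 95.8 and 25.1 CPM in APP LPS and 314, 350.0, 231, 232 and 93.8 in APP vehicle. WT LPS libraries had 261, 193, 118, 165 and 84.1 CPM, against 302, 339, 231 and 155 in WT vehicle. LPS was lower in 9 of 9 pairs, by -1.003 ± 0.131 on the log2 scale (adjusted p = 0.000293, edgeR). Nceh1, a hydrolase of stored cholesterol esters, fell by 0.65 on the log2 scale and was lower in 8 of 9 pairs (adjusted p = 0.00364). Ch25h, which makes 25-hydroxycholesterol, an oxysterol that blocks SREBP processing, rose by 1.07 ± 0.23 and was higher in 7 of 9 pairs (adjusted p = 0.0197), a call kept in 4 of the 9 fits that left out a pair. Acsl1, Lipa and Nceh1 kept theirs in 9 of 9. These counts are for LPS averaged over genotypes, and those within a genotype were mostly lower. For LPS in APP, Acsl1 was called in 5 of the 9 fits, Lipa in 9, Nceh1 in 6 and Ch25h in 1. For LPS in WT the counts were 7, 1, 0 and 0 in the same order. Npc1, which moves cholesterol out of lysosomes, was lower in 8 of 9 pairs and not called (-0.52 ± 0.17, adjusted p = 0.175). The part of the macrophage markers, lower in the same fit, was not tested here either.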

How the data were processed

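Cultured microglia were profiled by QuantSeq 3′ RNA sequencing, and per the submitters' processing notes FastQC, Trimmomatic, kallisto and DESeq2 were used. The deposited values are the authors' estimated counts per gene, already whole (rounding changed 0 values), in 16941 genes and 19 libraries. Facts on the build, annotation, strand and identifiers: not given in the sources used here. The members, gene lists and named genes (pathway landmarks, called members and those with the smallest p) were chosen with earlier results of these data known.

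The main test was edgeR 4.0.16's quasi-likelihood test (R 4.3.3, TMM, filterByExpr, 14113 genes, 1 coefficient per group, Benjamini-Hochberg adjustment, threshold 0.05), tested on simulated data. Alternatives were DESeq2 1.42.0, limma 3.58.1 voom, other scalings and filters, blocks, and libraries left out. Log2 CPM used a prior count of 2. Floors of 3 counts cover counting error only. Same-numbered APP libraries deviated together (correlations 0.130 to 0.352 over 5 pairs), and their numbers match neighbouring library numbers; WT replicate numbers did not pair (-0.09 to 0.07), so neighbouring library numbers, with correlations of 0.0959 to 0.292, were used there. WT LPS 1 had no partner. No 2 libraries of a group were copies: over 36 comparisons the chi-square statistic was at least 85.9 per degree of freedom. Gene positions are from GENCODE vM21 (GRCm38).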

Additional observations from a re-analysis of the deposited data

Results flagged for a closer look

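In 14 cases 1 library stood apart from the others of its group by Dixon's test on CPM at the 95% level, among 124 member and group combinations tested. Chance gives about 1 in 20 only for independent tests of normally spread values, and these combinations share libraries. APP LPS 1 accounted for 6: Hmgcs1 at 364 CPM, Idi1 at 187, Fdft1 at 123, Sqle at 66.4, Msmo1 at 306 and Sc5d at 112 CPM, each the highest of its group. APP vehicle 1 accounted for 3, with Pmvk at 14.9, Fdft1 at 55.9 and Nsdhl at 43.4 CPM, each the highest of its group. In the other groups and libraries, Insig2 stood at 107 CPM in APP vehicle 3 and Cyp51 at 72.6 CPM in WT LPS 1. WT vehicle 1 was highest for Msmo1 at 207 and Dhcr7 at 7.83 CPM, and WT vehicle 2 for Mvk at 15.5 CPM. All 14 were high and none was low, on a scale that stretches high values and compresses low ones. On the log2 scale, Acaca in APP LPS 1 lay at -2.92 from its mean over the libraries. The other APP LPS libraries lay between -0.12 and 0.63. Dixon's test was not run on log2 values.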

How the results depend on the processing

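The count of members called was 0 in all 7 comparisons under DESeq2, limma voom, 2 other scalings, no filter, a filter at a mean of 10 CPM, and without each library, libraries 57 to 60 or the first APP pair. The replicate block and the library pair block were fitted for 4 of the 7, LPS in WT, in APP and averaged and the interaction, with 0 members called; the exception is Idi1, lower after LPS with the library pair block without the first APP pair (averaged -0.72, APP -1.18, adjusted p = 0.0158 and 0.0167). Over all genes, calls were more sensitive. For LPS in WT, in APP and averaged, the group fit called 0, 0 and 3 genes, DESeq2 89, 76 and 178, limma voom with pairs as a random effect 3, 9 and 68, the library pair block 21, 83 and 211, and the paired fit with title numbers (replicate block) 0, 2 and 39, with 1 for the interaction. For APP against WT with vehicle, after LPS and averaged, and for the interaction, DESeq2 called 64, 69, 107 and 99 against 0 each. Without libraries 57 to 60 the calls were 4 in APP, 31 averaged and 1 for APP against WT after LPS, without the first APP pair 0 averaged, and leaving out 1 library gave 0 to 11 averaged. Blocks fitted in WT or APP alone called 20 and 63. Hmgcs1 with Sqle had r = 0.496 over pair means (adjusted p = 0.328) and turned to -0.0964 without the first APP pair and with group means taken again, where Hmgcs1 with Fasn turned to 0.0740 and Hmgcs1 with Srebf2 lost its call at 0.575 (adjusted p = 0.0692). The median Scd2 ratio within pairs was -0.80 without libraries 57 to 60, against -0.15 over all pairs. The causes were not tested. Mvk, Pmvk, Mvd, Dhcr7 and Scd1 each had at most 3 counts in 1 to 3 libraries and at least 100 in another, a swing that 5143 genes showed; levels under 0.0963 to 0.249 CPM, the floor of 3 counts, were not detectable.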

Other observations

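Mecr, the reductase of mitochondrial fatty acid synthesis, was close to absent in the 5 APP LPS libraries. It stood at 0, 0, 0.243, 0.332 and 0.0460 CPM in APP LPS and 3.59, 12.6, 7.81, 4.78 and 3.69 in APP vehicle, and at 0.288, 7.67, 3.97, 13.5 and 8.57 in WT LPS, against 6.71, 3.19, 15.2 and 12.3 in WT vehicle. The APP groups did not overlap (0.588% of all genes did not), and 1 WT LPS library was as low as the APP LPS libraries. For LPS in APP the adjusted p was 0.495 in edgeR's group fit, 0.320 with the replicate block and 0.0501 with pairs as a block. It was 0.0342 in limma voom and 8.43e-07 in DESeq2. For the interaction it was 1 in edgeR's group fit, 0.597 in limma voom and 0.0107 in DESeq2, and neither block called it. A swing from at most 3 counts to at least 100 between libraries was shown by 5143 genes, Mecr among them. It had the smallest p of its list of 6 genes.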
